A study of Mus musculus with 16 samples.

Results

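The question addressed here is whether a high-fat diet changed the transcriptome of oligodendrocytes in App knock-in mice by another amount than in wild-type mice. It was answered gene by gene with a difference of differences: the log2 effect of the diet in App mice minus the log2 effect of the diet in wild-type mice, called the interaction below. A positive interaction means that the level on the high-fat diet, relative to the control diet, was higher in App mice than in wild-type mice. Of the 16 libraries of the series, 15 were used. They were 4 of App mice on the high-fat diet (App_HFD), 3 of App mice on the control diet (App_NCD), 4 of wild-type mice on the high-fat diet (WT_HFD) and 4 of wild-type mice on the control diet (WT_NCD). Single libraries are written with the animal number that the labels give. The library App_NCD 553 was left out because 38.6% of its counts came from mitochondrially encoded protein genes, against 1.03% to 4.25% in the 15 libraries used.

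All mice were male. App mice were homozygous for App NL-G-F, a knock-in under the gene's own promoter that carries a humanized amyloid-β sequence with the Swedish, Beyreuther/Iberian and Arctic mutations, and they were bred as an inbred line. Wild-type (WT) mice were C57BL/6J Jcl animals bought from a supplier, so genotype and origin of the animals cannot be told apart. Feeding started at 2 months of age and lasted 6 months, with sampling at 8 months. The high-fat diet (HFD, D12492) gave 60.0% of its energy as fat and 524 kcal per 100 g, and the normal control diet (NCD, CE-2) gave 12.5% and 345.0 kcal per 100 g. The diets were therefore different products and not 1 recipe with added fat. Mice were perfused with saline, cells were taken from whole brain by magnetic sorting, and poly(A) RNA was sequenced. The labels give no litter, batch, day or hour of sampling, and nothing pairs animals across groups.

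Oligodendrocytes wrap axons in myelin, a membrane rich in cholesterol and galactolipids that they largely build themselves, so their lipid genes are of interest when dietary fat changes. Mice with the App NL-G-F alleles form amyloid plaques, around which microglia take on an activated, lipid-handling state. An interaction can arise because a gene moves in 1 genotype only, because it moves in both to different extents, or because it moves in opposite directions, and the contrast itself does not tell these apart.

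Totals ran from 64538297 to 84114322 counts in App_HFD, 69772745 to 101709022 in App_NCD, 90220118 to 101737328 in WT_HFD and 98588561 to 217925484 in WT_NCD. The 30 listed myelin and mature oligodendrocyte genes were all measured and summed to 51759 to 66389 CPM (counts scaled to library size) in App_HFD, 47396 to 60639 CPM in App_NCD, 67761 to 80258 CPM in WT_HFD and 60109 to 82650 CPM in WT_NCD, so the labelled cell type was present in every library. It was not pure: the 16 listed homeostatic microglia genes summed to 9884 to 16545 CPM in App_HFD, 12652 to 15119 CPM in App_NCD, 3280.1 to 6180.2 CPM in WT_HFD and 4398 to 7160.1 CPM in WT_NCD. In such bulk samples fewer cells of a type and less RNA per cell cannot be told apart. Haemoglobin genes made up 0.929% of counts in WT_HFD 2 and 0.515% in WT_HFD 16, against 0.0150% to 0.119% in the other 13 libraries used. App, the amyloid precursor gene (ENSMUSG00000022892, on the minus strand of mm10 chromosome 16 from 84949685 to 85173766), had an interaction of 0.09 (95% interval -0.35 to 0.53). Its level was 2451 ± 173 CPM in App_HFD (SD, n = 4), 2344 ± 99.4 CPM in App_NCD (n = 3), 3287 ± 305 CPM in WT_HFD (n = 4) and 3345 ± 734 CPM in WT_NCD (n = 4). These levels do not check the labels, since the knock-in alters the coding sequence and not the promoter.

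No gene passed the interaction test. Of 22322 genes tested with edgeR's quasi-likelihood test, 0 (0%) had an adjusted p under 0.05, and the smallest adjusted p was 1.00. At an unadjusted p under 0.05 there were 614 genes, 324 (1.45%) with a positive and 290 (1.30%) with a negative interaction. This is 2.75% of those tested, below the 5% that the threshold itself would give if no gene differed. The share depended on the tool and was 5.45% with limma-voom. The median interaction over all genes was 0.02. The diet effects that make up the contrast gave more genes at the same unadjusted threshold, 1576 (7.06%) in App mice, of which 972 (4.35%) were higher and 604 (2.71%) lower on HFD, and 1139 (5.10%) in WT mice, of which 743 (3.33%) were higher and 396 (1.77%) lower on HFD. Neither diet effect gave a gene past the adjusted threshold in this fit (0% each). The smallest adjusted p was 0.0746 in App mice and 0.277 in WT mice.

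Of the other tools, only DESeq2 gave interaction calls. DESeq2 called 6 genes at an adjusted p under 0.05, 1 positive (Ighv5-12) and 5 negative (Nos1, Samd12, H2-M2, Igkv6-13 and Igkv1-122). It had 691 (3.10%) at an unadjusted p under 0.05. limma-voom with quality weights called 0 and had 1216 (5.45%) at an unadjusted p under 0.05. DESeq2 also called 112 genes for diet in App mice and 45 for diet in WT mice, and limma-voom 161 and 5. Of the 6 interaction calls, 3 are immunoglobulin variable segments, for which near-identical copies make the counts uncertain, and H2-M2, an MHC class I gene, had a mean of 0.296 CPM. The 2 others, Nos1 and Samd12, were measured well above the counting floor.

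Nos1 (ENSMUSG00000029361, mm10 chromosome 5, 117781032 to 117958840, plus strand), the neuronal nitric oxide synthase, had the smallest interaction p of all genes of at least 1 CPM. Its level was 1.24, 1.31, 1.13 and 1.38 CPM in App_HFD, against 2.12, 1.94 and 2.2 CPM in App_NCD. In WT mice it was 3.15, 3.49, 3.48 and 3.94 CPM in WT_HFD, against 2.97, 2.81, 2.38 and 2.63 CPM in WT_NCD. Every App_HFD library thus lay below every App_NCD library, while every WT_HFD library lay above every WT_NCD library. These levels rest on 71 to 116 counts per library in App_HFD, the lowest group. The diet effect was -0.72 in App mice and 0.38 in WT mice on the log2 scale, and the interaction was -1.10 ± 0.205 (SE, 95% interval -1.54 to -0.67; edgeR unadjusted p = 7.49e-05, adjusted p = 1.00; DESeq2 adjusted p = 0.000130). It kept its sign under all 27 alternative settings, between -1.94 with App_NCD 553 included and -1.04. Because Nos1 was picked by its p in these same libraries, the kept sign adds no support. Tomm6 and Hba-a2, described below as uneven between libraries, also kept their sign in all 27. The 15 listed neuronal genes had a median interaction of -0.33, 9 of them negative, and the median was -0.05 without App_NCD 537. Their summed level, of which Tubb3 was most, was 82.9 to 118.6 CPM in App_HFD and 67.6 to 76.1 CPM in App_NCD, and 100.1 to 114 CPM in WT_HFD and 74.0 to 90.0 CPM in WT_NCD, so HFD libraries lay above NCD libraries in both genotypes.

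Samd12 (ENSMUSG00000058656, mm10 chromosome 15, 53453810 to 53902537, minus strand), a gene for a SAM-domain protein, had the same shape. It was at 2.67, 2.80, 3.07 and 3.18 CPM in App_HFD, against 4.74, 3.96 and 3.26 CPM in App_NCD, and at 6.17, 5.68, 5.45 and 5.12 CPM in WT_HFD, against 4.88, 4.38, 3.97 and 4.15 CPM in WT_NCD. The groups did not overlap within either genotype, though App_HFD 561 and App_NCD 545 lay close to each other. The interaction was -0.81 ± 0.200 (SE, 95% interval -1.24 to -0.39; edgeR unadjusted p = 0.00102; DESeq2 adjusted p = 0.0438). Exog (ENSMUSG00000042787, mm10 chromosome 9, 119444943 to 119465517, plus strand), a nuclease of mitochondria, went the other way. It was at 11.3, 9.60, 10.4 and 12.0 CPM in App_HFD, against 6.27, 8.45 and 8.34 CPM in App_NCD, and at 8.48, 8.87, 8.18 and 8.98 CPM in WT_HFD, against 9.25, 10.6, 10.7 and 9.63 CPM in WT_NCD. Its interaction was 0.71 ± 0.168 (SE, 95% interval 0.35 to 1.07; edgeR unadjusted p = 0.000730).

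Nos1, Samd12 and Exog were the only genes among the 14878 of at least 1 CPM whose diet groups were separated without overlap in both genotypes and in opposite directions. Of these, 1 was higher on HFD in App mice and lower in WT mice (0.00672% of the genes) and 2 were the reverse (0.0134%). With 3 or 4 libraries per group, some of 14878 genes are expected to separate in this way by chance. How many was not computed, so the rule does not set these genes apart. In this small set the overlap rule and the interaction test use the same values, so the separation adds no second line of evidence.

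**Figure D1:**
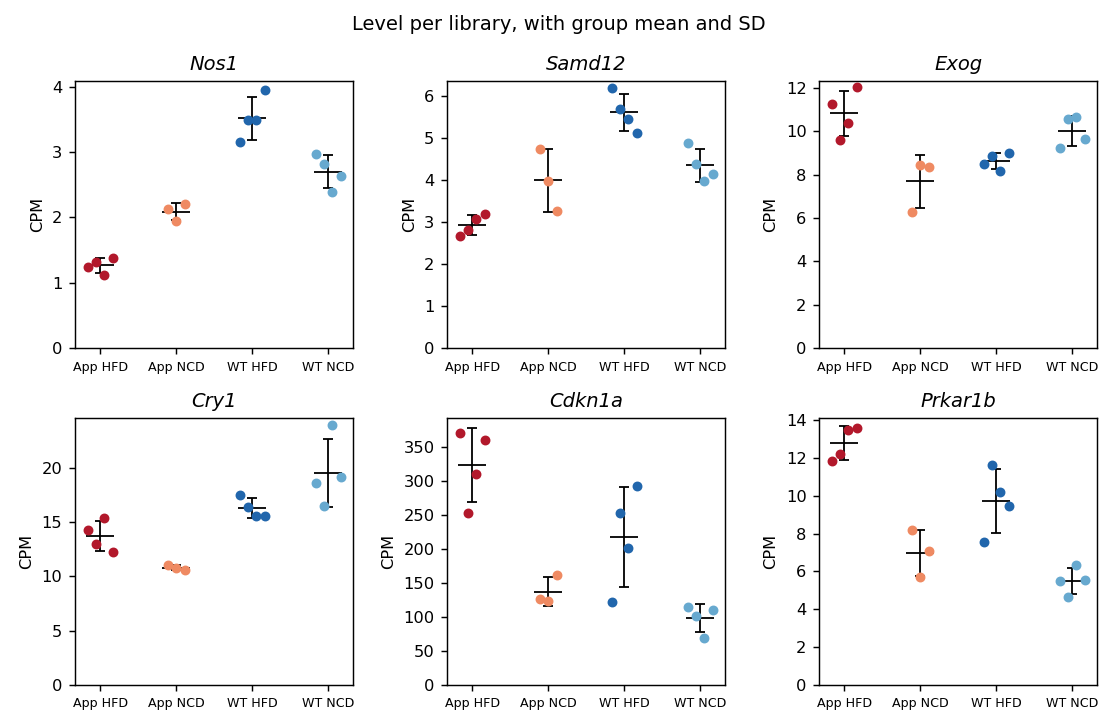
Level in CPM of 6 genes in each library (points), with the mean and SD of each group (black), for App_HFD (n = 4), App_NCD (n = 3), WT_HFD (n = 4) and WT_NCD (n = 4). Nos1 and Samd12 lie lower on HFD in App mice and higher on HFD in WT mice, Exog the reverse, while Cdkn1a and Prkar1b lie higher on HFD in both genotypes, with WT_HFD 2 the closest to its NCD group for Cdkn1a (122 CPM).

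Several genes among the 20 smallest p-values had an App diet effect above 0 and a WT diet effect below 0. WT_NCD 11 was the highest WT_NCD library by CPM for Cry1, Engase and Enho, the first 3 described. The same held for Zfp707, Tor2a, Fam193b and Plekhn1. This library also had the lowest share of mitochondrially encoded counts of the libraries used (1.03%). With any 1 library left out, WT_NCD 11 included, the edgeR unadjusted p reached at most 0.0074 for Cry1, 0.011 for Engase and 0.015 for Enho. These genes were picked by their p in these same libraries, so this adds no support. Cry1 (mm10 chromosome 10, 85131700 to 85185064, minus strand), a repressor of the circadian clock, was at 14.3, 13.0, 15.4 and 12.2 CPM in App_HFD, against 11.1, 10.8 and 10.6 CPM in App_NCD. It was at 17.6, 16.4, 15.6 and 15.6 CPM in WT_HFD, against 18.6, 16.5, 24.0 and 19.2 CPM in WT_NCD. App libraries were separated by diet and WT libraries overlapped, and the interaction was 0.60 (95% interval 0.25 to 0.96; edgeR unadjusted p = 0.00237). Of the 18 listed clock genes, Cry1 was the only one at an unadjusted p under 0.05. The median interaction of this list was 0.06 (0.02 over all genes) and turned negative with scaling to the myelin genes, and Per3 (0.43, interval -0.08 to 0.94) and Npas2 (-0.33) lay on opposite sides of 0. The labels do not give the hour of sampling.

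Engase, which encodes a cytosolic endoglycosidase, was at 14.9, 16.9, 15.0 and 13.5 CPM in App_HFD, against 11.2, 13.9 and 13.9 CPM in App_NCD, and at 9.81, 9.73, 8.80 and 11.9 CPM in WT_HFD, against 13.5, 12.7, 17.2 and 12.1 CPM in WT_NCD. Here the diet groups were separated in WT mice and overlapped in App mice, and the interaction was 0.68 (interval 0.26 to 1.09). Enho, the gene of the secreted peptide adropin, was at 24.1, 26.2, 24.4 and 22.3 CPM in App_HFD, against 15.9, 19.8 and 18.9 CPM in App_NCD. In WT mice it was at 27.6, 31.1, 36.8 and 29.2 CPM in WT_HFD, against 31.9, 32.3, 40.7 and 32.2 CPM in WT_NCD. Its App groups did not overlap, its WT groups did, and its interaction was 0.55 (interval 0.20 to 0.90). Zfp707 (0.53, interval 0.21 to 0.85), a zinc finger gene, Tor2a (0.39, interval 0.12 to 0.66), a torsin ATPase gene, Fam193b (0.38, interval 0.12 to 0.65) and Plekhn1 (0.34, interval 0.11 to 0.57) also had positive interactions. These 6 genes were picked by their small interaction p in these same libraries, which pushes their estimates away from 0. The intervals of these 6 genes, unadjusted for the number of genes, therefore exclude 0, and they reach no further than 1.09. Their edgeR unadjusted p did not stay under 0.05 in every alternative setting: with App_NCD 553 included it was 0.152 for Engase, 0.147 for Enho, 0.140 for Zfp707 and 0.252 for Tor2a, and with scaling to the myelin genes it was 0.153 for Fam193b and 0.188 for Plekhn1.

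Several of the remaining genes of the 20 smallest p-values were high in few libraries. Hba-a1 and Hba-a2, the alpha-globin genes of red blood cells, had interactions of -3.36 and -3.49. Hba-a1 was at 176, 157, 135 and 46.1 CPM in App_HFD, against 328, 192 and 173 CPM in App_NCD, and at 2976, 134, 434 and 1601 CPM in WT_HFD, against 386, 147, 129 and 239 CPM in WT_NCD. WT_HFD 2 and WT_HFD 16 stood far above every other library and WT_HFD 3 did not. All 5 listed erythroid genes had a negative interaction at an unadjusted p under 0.05 (1.30% of all genes). Their median was -3.36, and it was -0.94 without WT_HFD 2 and WT_HFD 16. The summed erythroid level was 153.8 to 484 CPM in App_HFD, 451 to 929 CPM in App_NCD, 405 to 9626 CPM in WT_HFD and 429 to 1136 CPM in WT_NCD.

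Immunoglobulin genes, made by plasma and B cells, behaved alike. Ighv1-4 was at 119 CPM in WT_HFD 16, at 1.54 CPM in App_NCD 545 and under 1 CPM in each of the other 13 libraries. Igkv6-13 was at 6.10 CPM in WT_HFD 16 and at 2.00 and 9.64 CPM in App_NCD 538 and 545, and under 0.1 CPM elsewhere. Igha, the heavy chain of IgA, was at 0, 0, 0.0317 and 0.0954 CPM in App_HFD, against 0, 2.93 and 2.26 CPM in App_NCD, and at 4.57, 6.73, 0.295 and 0.548 CPM in WT_HFD, against 0.300, 0, 0.0376 and 0.0389 CPM in WT_NCD. Near-complete absence from several libraries makes a fitted fold change of these genes meaningless, so none is given. Of the 10 listed T cell, B cell and neutrophil genes, Cd79a and Ms4a1, both of B cells, reached an unadjusted p under 0.05 (edgeR, 0.0166 and 0.0365). Both interactions were negative, which 1.30% of all genes were at that threshold. WT_HFD 16 was the highest library for both, at 31.9 and 22 CPM. The summed level of the 10 genes was 10.8 to 29.6 CPM in App_HFD, 30.03 to 35.8 CPM in App_NCD, 24.8 to 232 CPM in WT_HFD and 23.8 to 229.6 CPM in WT_NCD, and Cd3e, Cd3g and Ly6g were at 0 in 3 libraries each.

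The epithelial genes Epcam and Krt1 were highest in a WT_HFD library. Epcam, an epithelial adhesion gene, was at 8.04 CPM in WT_HFD 16 and at 0.474 to 2.60 CPM in the other 14 libraries. Krt1, a skin keratin, was at 5.67 CPM in WT_HFD 15, 2.21 CPM in WT_HFD 16 and 0.564 to 1.27 CPM in the other 13. With 1 library left out the interaction was -2.51 to -1.36 for Epcam and -2.19 to -1.16 for Krt1. Tomm6, a small subunit of the mitochondrial import pore, was at 19.6, 17.0, 10.9 and 8.36 CPM in App_HFD, against 21.5, 55.2 and 58.9 CPM in App_NCD, and at 51.0, 12.0, 47.2 and 38.3 CPM in WT_HFD, against 30.6, 23.6, 24.3 and 27.4 CPM in WT_NCD. Libraries of 1 group differed by over 4-fold in WT_HFD, and the interval was wide (-3.45 to -0.91 about -2.18). Pcdhgb1 (2.60, interval 0.87 to 4.33), a protocadherin that shares exons with its neighbours in the gene cluster, reached 87.0 CPM in App_HFD 560 and 82.7 CPM in WT_NCD 12. Its counts may be split between isoforms of the cluster. Gp1ba (-0.89, interval -1.50 to -0.29), a platelet adhesion receptor, was between 1.08 and 2.35 CPM in every library, with every App_HFD library (1.08 to 1.53 CPM) below every App_NCD library (1.73 to 2.35 CPM).

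The other side of the comparison is the diet response that App and WT mice had in common. The diet effects of the 2 genotypes come from separate libraries, so their likeness across genes can be described directly. Over the 14878 genes of at least 1 CPM the effects had the same sign in 59.7% and a Pearson correlation of 0.31 (Spearman 0.31). This is a correlation across genes, which are not independent replicates. The share was 49.0% and the Pearson correlation 0.13 with App_NCD 553 included, and 54.3% and 0.09 without WT_NCD 4 and WT_HFD 16. Of 1190 such genes at an unadjusted p under 0.05 for diet in App mice, 82.7% had the same sign in WT mice. Of 676 at that threshold in WT mice, 79.4% had the same sign in App mice.

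At that threshold in both genotypes there were 220 genes of at least 1 CPM, of which 213 (96.8%) had the same direction, 174 higher and 39 lower on HFD. The 7 with opposite directions were Nos1, Samd12, Cry1, Tor2a, Pcdhgb1, Igha and Igkv6-13. Among the 213, the App effect was the larger one in 160 and the WT effect in 53. The App effect has a larger error, so it must be larger to pass, and this split is not a test of a stronger response. The share with the same direction was 94.0% to 99.1% across the alternative settings, though the number of genes was 76 with App_NCD 553 included and 501 without WT_HFD 2.

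**Figure D2:**
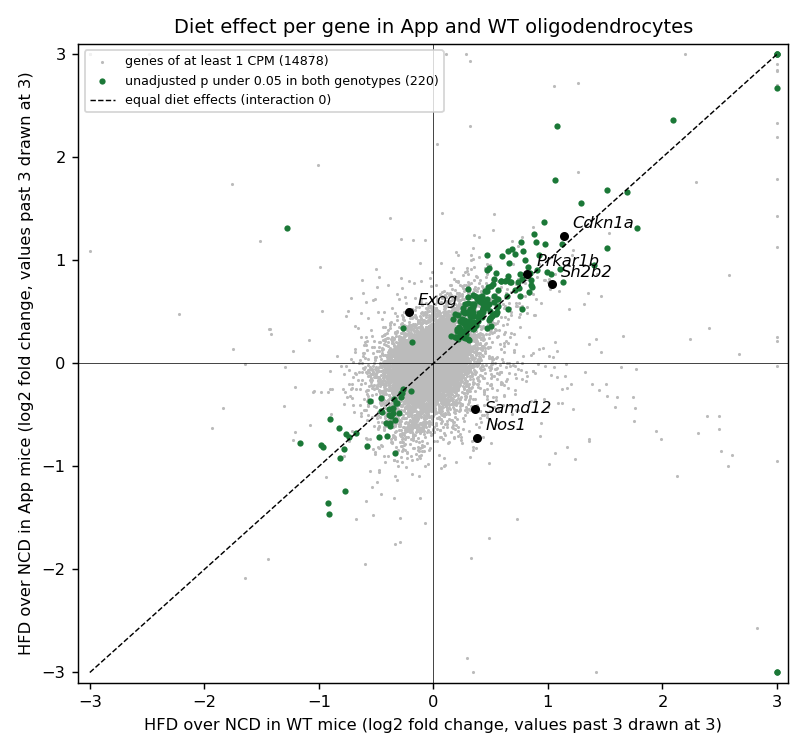
Log2 diet effect (HFD over NCD) in App mice (vertical) against that in WT mice (horizontal) for 14878 genes of at least 1 CPM (grey), with the 220 genes at an unadjusted p under 0.05 in both genotypes in green. Of the green points 213 lie in the 2 quadrants of equal sign, along the dashed line of equal effects, and Nos1 and Samd12 lie below it to the right of 0.

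Genes with the smallest p for diet in either genotype are described next. They were picked by that p in these same libraries, so a clear diet effect in the genotype of the pick adds no support. Cdkn1a, the cell-cycle inhibitor p21, was at 371, 253, 311 and 361 CPM in App_HFD, against 127, 123 and 161 CPM in App_NCD. It was at 122, 253, 202 and 294 CPM in WT_HFD, against 115, 101, 69.0 and 111 CPM in WT_NCD. HFD libraries lay above NCD libraries in both genotypes, with WT_HFD 2 only just above WT_NCD 4. The diet effect was 1.24 in App mice and 1.14 in WT mice, and the interaction was 0.10 with a 95% interval of -0.61 to 0.81, so a ratio of the App response to the WT response anywhere from 0.655 to 1.76 lies inside the interval.

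Prkar1b, a regulatory subunit of protein kinase A, was at 11.8, 12.2, 13.5 and 13.6 CPM in App_HFD, against 8.17, 5.72 and 7.07 CPM in App_NCD, and at 7.58, 11.7, 10.2 and 9.45 CPM in WT_HFD, against 5.50, 4.63, 6.32 and 5.56 CPM in WT_NCD. Its diet groups were separated in both genotypes, its diet effects were 0.87 in App mice and 0.82 in WT mice, and its interaction was 0.05 (interval -0.41 to 0.51). Sh2b2, an adaptor of insulin and cytokine receptor signalling, was at 68.8, 59.3, 54.4 and 62.6 CPM in App_HFD, against 41.8, 31.0 and 35.1 CPM in App_NCD. It was at 33.1, 53.8, 43.1 and 57.5 CPM in WT_HFD, against 26.3, 22.5, 17.9 and 24.8 CPM in WT_NCD. Again no groups overlapped, and the interaction was -0.27 (interval -0.77 to 0.24). Pdxk, pyridoxal kinase (0.03, interval -0.57 to 0.63), Ada, adenosine deaminase (-0.12, interval -0.58 to 0.35), and Tubb3, a tubulin best known from neurons (0.26, interval -0.10 to 0.61), had diet effects of 0.52 to 0.88 in both genotypes and intervals that include 0.

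Some diet genes had an unadjusted interaction p under 0.05. Spns2, a sphingosine-1-phosphate exporter with the smallest p for diet in App mice, was at 147, 134, 136 and 181 CPM in App_HFD, against 90.2, 88.8 and 92.7 CPM in App_NCD, and at 119.8, 142, 144 and 145 CPM in WT_HFD, against 114, 119, 101 and 112 CPM in WT_NCD. HFD libraries lay above NCD libraries in both genotypes, by a wide margin in App mice and barely in WT_HFD 2, with an interaction of 0.42 (interval 0.11 to 0.74; edgeR unadjusted p = 0.0123). Klf15, a glucocorticoid-induced transcription factor (0.25, interval 0.01 to 0.49), Slc35e4 (0.30, interval 0.02 to 0.59) and Tmem110 (0.29, interval 0.03 to 0.54), which encodes a protein of calcium entry, had positive interactions too. For these 3 genes HFD libraries lay above NCD libraries in App mice, while the WT groups overlapped. Sptlc3, a subunit of serine palmitoyltransferase, the first enzyme of sphingolipid synthesis, was at 1.98, 2.12, 1.85 and 2.00 CPM in App_HFD, against 4.55, 2.87 and 3.47 CPM in App_NCD, and at 4.57, 4.74, 3.47 and 3.74 CPM in WT_HFD, against 5.42, 5.35, 5.05 and 5.05 CPM in WT_NCD. It was lower on HFD in both genotypes without overlap, and its interaction was -0.53 (interval -1.01 to -0.05).

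These 5 genes were picked by their small p for the diet effect in App mice, and that effect enters the interaction. Their interactions are therefore pushed in the direction of the App effect and support nothing. The same holds in reverse for Clec10a, a macrophage lectin picked from WT mice, which was at 11.3, 9.76, 9.95 and 11.6 CPM in App_HFD, against 13.1, 13.5 and 11.6 CPM in App_NCD, and at 6.13, 7.71, 6.33 and 9.19 CPM in WT_HFD, against 18.6, 12.1, 12.3 and 11.2 CPM in WT_NCD (0.63, interval 0.12 to 1.15).

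**Figure D3:**
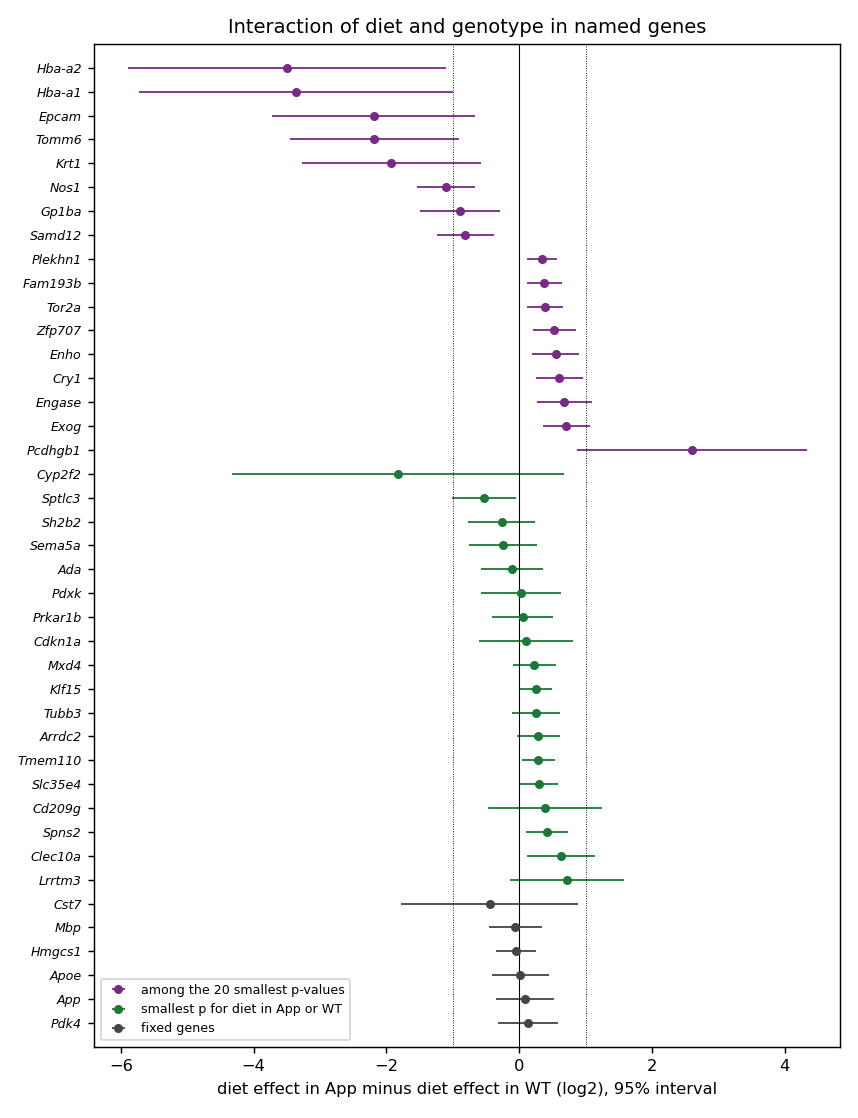
Interaction (diet effect in App minus diet effect in WT, log2) with its 95% interval for the named genes: those among the 20 smallest p-values without the immunoglobulin genes, those with the smallest p for diet, and fixed genes. Dotted lines mark 2-fold differences; the narrow intervals of Hmgcs1 (-0.34 to 0.25) and Klf15 (0.01 to 0.49) contrast with those of Hba-a2 (-5.89 to -1.10) and Cyp2f2 (-4.33 to 0.67).

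The size of difference that could be missed depends on a gene's level. The 95% interval of the interaction had a median half-width of 0.65 on the log2 scale (1.57-fold) over all genes. It was 1.44 (2.71-fold) in the 7444 genes under 1 CPM, 0.67 (1.59-fold) in the 4865 genes of 1 to 10 CPM, 0.38 (1.30-fold) in the 7960 genes of 10 to 100 CPM and 0.38 (1.31-fold) in the 2053 genes of 100 CPM or more. Precision was thus no better at 100 CPM or more than at 10 to 100 CPM. For 82.2% of the 14878 genes of at least 1 CPM the whole interval lay within a 2-fold difference, and for 46.4% within a 1.5-fold difference. These intervals are not adjusted for the number of genes, so about 5% are expected to miss the true value.

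A stricter reading asks which difference would have been found. For a gene of at least 1 CPM with the median error, a true interaction of 0.64 (1.56-fold) had an 80% chance of an unadjusted p under 0.05. For an adjusted call of a single gene among 22322, which needs a p of about 2.24e-06, that size was 1.75 (3.36-fold). It was 1.45 (2.73-fold) at 10 to 100 CPM, 2.60 (6.06-fold) at 1 to 10 CPM and 5.56 (47.2-fold) under 1 CPM. The 0 calls therefore leave room for differences of that size in single genes. The precision of the plain diet effects was better, with median half-widths of 0.48 in App mice and 0.44 in WT mice.

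**Figure D4:**
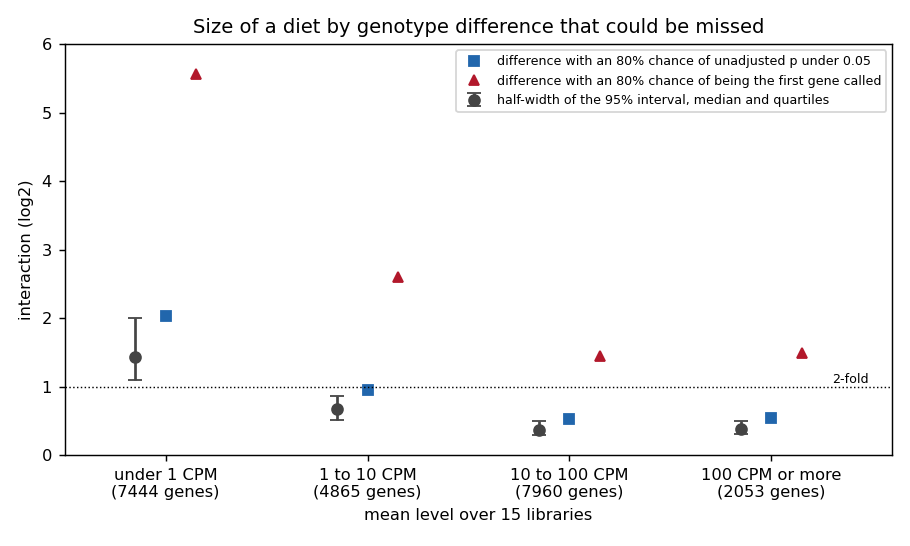
Half-width of the 95% interval of the interaction (circles with quartiles), the true difference with an 80% chance of an unadjusted p under 0.05 (squares) and that with an 80% chance of being called as the first gene (triangles), in log2 units, by mean level. All 3 decline from genes under 1 CPM to genes of 10 to 100 CPM (half-width 1.44 to 0.38) and then stay level.

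Gene lists were described by their counts and medians. Over 30 lists 611 distinct genes were tested, 0 were called by edgeR, and 21 (3.44%) had an unadjusted p under 0.05, beside 2.75% of all genes. The intervals of 404 of them (66.1%) lay within a 2-fold difference. The median of 11 lists kept its sign in every alternative setting, and that of the other 19 changed sign in at least 1.

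Median interactions of the myelin and lipid lists were small, and the width of their intervals differed. The median half-width was 0.45 in myelin genes, the same as in all genes of at least 1 CPM (0.45). It was 0.30 in cholesterol synthesis and uptake genes and 0.60 in lipid droplet genes. The 30 myelin and mature oligodendrocyte genes had a median interaction of 0.10, with 22 positive and 0 at an unadjusted p under 0.05. Of their intervals 27 lay inside 2-fold and 12 inside 1.5-fold. Mbp, myelin basic protein, was at 3894 ± 478 CPM in App_HFD (SD, n = 4), 3724 ± 237 CPM in App_NCD (n = 3), 4340 ± 614 CPM in WT_HFD (n = 4) and 3987 ± 386 CPM in WT_NCD (n = 4), an interaction of -0.06 (interval -0.46 to 0.34). Olig2, a lineage transcription factor, had -0.37 (interval -0.82 to 0.07). The 26 cholesterol synthesis and uptake genes had a median of 0.11, with 24 intervals inside 2-fold and 22 inside 1.5-fold, the largest share inside 1.5-fold of the 30 lists. Hmgcs1, HMG-CoA synthase of the cholesterol pathway, had -0.04 (interval -0.34 to 0.25), and Lss, lanosterol synthase, 0.20 (interval -0.05 to 0.44). Of this list, 6 genes had an unadjusted p under 0.05 for a lower level on HFD in WT mice (1.77% of all genes) and 1 in App mice (2.71% of all genes). Whether the genotypes differ in this count was not tested.

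The 34 sphingolipid and galactolipid genes had a median of 0.01, with 29 intervals inside 2-fold. The median turned negative in 11 of 27 alternative settings, among them other scalings (RLE, library totals, myelin genes), DESeq2 and several left-out single libraries. Of these 34 genes, 5 had an unadjusted p under 0.05, 3 positive (1.45% of all genes) and 2 negative (1.30% of all genes). The positive ones were Cers1, a ceramide synthase (0.51, interval 0.03 to 0.99), Smpd2, a neutral sphingomyelinase (0.26, interval 0.03 to 0.50), and Arsa, which degrades sulfatide (0.26, interval 0.01 to 0.51). The negative ones were Sgms2, a sphingomyelin synthase (-0.61, interval -1.20 to -0.01), and Sptlc3, described above. The 20 lipid droplet and lipolysis genes had a median of 0.16, with 16 positive. In this list 7 genes had an unadjusted p under 0.05 for a higher level on HFD in App mice (4.35% of all genes) and 3 in WT mice (3.33%), and 0 for the interaction. Plin4, a lipid droplet coat protein, was at 544, 388, 668 and 791 CPM in App_HFD, against 282, 180.1 and 379.8 CPM in App_NCD, and at 256, 646, 376 and 585 CPM in WT_HFD, against 279, 314, 199 and 290.0 CPM in WT_NCD. App groups were separated and WT_HFD 2 lay among the WT_NCD libraries, and the interaction was 0.31 (interval -0.61 to 1.23). Pnpla2, the triglyceride lipase ATGL, had diet effects of 0.62 in App mice and 0.38 in WT mice and an interaction of 0.24 (interval -0.10 to 0.59).

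Fatty acid synthesis genes (24 tested, median -0.01) had no gene at an unadjusted p under 0.05. Fatty acid oxidation genes (28 tested, median 0.10) had Acaa1a, a peroxisomal thiolase (0.51, interval 0.02 to 1.00), which was at 55.0 CPM in App_NCD 537 and at 95.1 and 97.1 CPM in the other App_NCD libraries. WT_NCD 11 was the highest WT_NCD library by CPM for Acaa1a. Among 17 cholesterol export and lipoprotein genes (median 0.09), Cyp27a1, a sterol hydroxylase, had 0.30 (interval 0.02 to 0.59). Apoe, the gene of the main apolipoprotein of the brain, had 0.02 (interval -0.42 to 0.45). The 25 insulin and IGF signalling genes had a median of -0.04 with 0 at an unadjusted p under 0.05.

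Glucocorticoid receptor targets were the list with the most genes at an unadjusted p under 0.05 for a higher level on HFD in App mice. Of 18 such genes, 10 had an unadjusted p under 0.05 for a higher level on HFD in App mice (4.35% of all genes) and 5 in WT mice (3.33% of all genes), and 0 for a lower level in either. Their median diet effect was 0.36 in App mice and 0.26 in WT mice, and their median interaction was 0.07, with 0 at an unadjusted p under 0.05. Besides Cdkn1a, Errfi1, a brake on EGF receptor signalling, had diet effects of 0.48 in App mice and 0.54 in WT mice and an interaction of -0.07 (interval -0.54 to 0.41). Klf9, a transcription factor, had 0.27 in both genotypes and an interaction of 0.01 (interval -0.36 to 0.37). The widest interval among the genes over 100 CPM of this list was that of Mt2, a metallothionein (-0.32, interval -1.66 to 1.03).

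Lists of amyloid processing (19 genes, median -0.02, 18 intervals inside 2-fold), disease-associated oligodendrocytes (20 genes, 0.06), the nuclear genes of oxidative phosphorylation (35 genes, 0.09), the endoplasmic reticulum and integrated stress response (24 genes, -0.02), immediate early genes (20 genes, 0.04) and cytosolic ribosomal proteins (68 genes, -0.04) had 0 genes at an unadjusted p under 0.05. The 13 mitochondrially encoded genes (median -0.25) had none either, and none of their intervals lay inside 2-fold. Their median was 0.06 without WT_NCD 11, which had the lowest share of mitochondrial counts (1.03%).

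Genes of other cell types had wider intervals, with a median half-width of 0.57 in astrocyte genes up to 2.45 in T cell, B cell and neutrophil genes, against 0.45 in myelin genes. The 25 disease-associated microglia genes had a median of 0.01, whose sign changed in 15 of the 27 alternative settings. Cst7, a cystatin of that state, was at 847, 966, 604 and 535 CPM in App_HFD, against 844, 876 and 922 CPM in App_NCD, and at 0.982, 0.507, 0.713 and 2.59 CPM in WT_HFD, against 1.57, 1.04, 0.383 and 1.15 CPM in WT_NCD. Diet groups overlapped in both genotypes, and with so little in WT mice the interaction of -0.45 had an interval of -1.78 to 0.89. The 16 homeostatic microglia genes had a median of 0.18 with 13 positive, and it was -0.09 without WT_NCD 4. The 8 border macrophage genes were all positive (median 0.28) with 0 at an unadjusted p under 0.05, and 2 intervals lay inside 2-fold. The median was 0.11 without WT_NCD 4. Their summed level was 537 to 677 CPM in App_HFD, 539.8 to 863 CPM in App_NCD, 295 to 589.9 CPM in WT_HFD and 412 to 769 CPM in WT_NCD.

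The 10 choroid plexus and ependymal genes had a median of -0.43 with 8 negative, and the median was -0.19 without WT_HFD 2. In this list 5 genes had an unadjusted p under 0.05 for a lower level on HFD in App mice (2.71% of all genes) and 0 in WT mice (1.77% of all genes), and whether the genotypes differ in this count was not tested. Kl, klotho, was at 393, 485, 632 and 349 CPM in App_HFD, against 751, 779 and 678 CPM in App_NCD, and at 1824, 1068, 930.2 and 721 CPM in WT_HFD, against 1152, 1197, 1195 and 990.4 CPM in WT_NCD. App groups were separated and WT groups overlapped, and the interaction was -0.67 (interval -1.40 to 0.07). Kcnj13, a potassium channel of that epithelium, had -0.75 (interval -1.50 to -0.0046; edgeR unadjusted p = 0.0488). Without WT_HFD 2, the library with the highest summed level, the interaction was -0.34 for Kl (edgeR unadjusted p = 0.208) and -0.39 for Kcnj13 (edgeR unadjusted p = 0.128). The summed level was 7494 to 15447 CPM in App_HFD, 9584 to 21738 CPM in App_NCD, 18844 to 38875 CPM in WT_HFD and 26343 to 31819 CPM in WT_NCD, and no marker of the list was at 0 in a library. Whether the amount of this tissue carried into the sort moved these genes was not tested.

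Endothelial genes (15, median 0.24, 13 positive), pericyte and smooth muscle genes (10, median 0.28) and astrocyte genes (15, median 0.15, 12 positive) had 0 at an unadjusted p under 0.05; the endothelial median was -0.02 without WT_HFD 2 and 16. Without those libraries the pericyte and smooth muscle median was 0.04, and the astrocyte median was 0.57 without App_NCD 537 and -0.0041 without App_NCD 538. In the neuronal list the only such gene, Slc17a6, was at 1.98 CPM in WT_HFD 16 and under 0.2 CPM elsewhere. Among 18 precursor genes (median -0.13), Pdgfra, the receptor that marks oligodendrocyte precursors, was at 10.4, 12.1, 14.2 and 12.0 CPM in App_HFD, against 18.2, 19.8 and 13.5 CPM in App_NCD, and at 57.5, 29.1, 27.7 and 22 CPM in WT_HFD, against 25.2, 20.8, 32.6 and 22.7 CPM in WT_NCD (-0.93, interval -1.69 to -0.16). WT_HFD 2 was the highest library, and Ptprz1, another gene of the list, had -0.05. In the interferon and MHC class I list (30 genes, median -0.08), Rsad2, an antiviral enzyme, was at 20.1 and 26.9 CPM in WT_HFD 2 and 16 and at 4.54 to 11.1 CPM in the other 13 libraries. In the cell cycle list (20 genes, median -0.23, but 0.20 without WT_HFD 2 and 16), Mcm2, a replication helicase subunit, had -0.37 (interval -0.71 to -0.04), and Mki67, a proliferation marker, was at 25.7 CPM in WT_HFD 16 and 2.85 to 4.79 CPM in the other WT_HFD libraries.

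**Figure D5:**
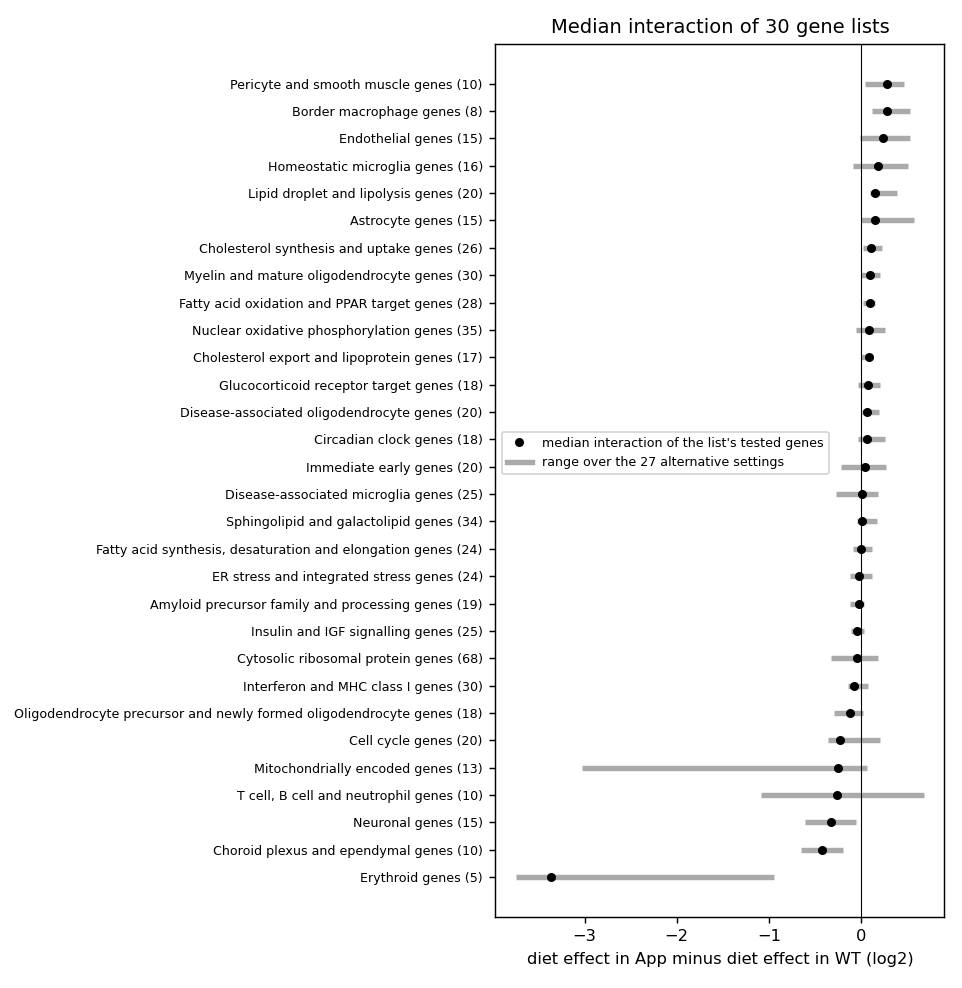
Median interaction of the tested genes of each of 30 lists (points, log2; number of genes in brackets), with the range of that median over 27 alternative settings (bars). All lists but the erythroid one (-3.36) have a median between -0.43 and 0.28, and only the mitochondrially encoded list (-3.03 with App_NCD 553 included), the erythroid list and the T cell, B cell and neutrophil list have bars that reach past -1.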

How the data were processed

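Poly(A) RNA of sorted mouse oligodendrocytes was measured in 16 libraries, of which 15 were used in 4 groups. The deposited table holds an estimated count per gene, made with fastp 0.23.2, HISAT2 2.2.1, StringTie 2.2.1 and bedtools 2.25.0 on mm10, per the submitters' processing notes. Which annotation was used is not given in the sources used here. Rounding changed no deposited value, since each was whole. StringTie derives counts from coverage and can divide reads between near-identical or overlapping genes, so immunoglobulin, haemoglobin, MHC class I, ribosomal protein and clustered protocadherin genes are uncertain. Of 53801 gene IDs, 53706 (99.8%) were in GENCODE mouse release 21, which gave the coordinates.

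Genes were filtered with filterByExpr (22322 kept), scaled by TMM and fitted with edgeR's quasi-likelihood test with robust dispersions (edgeR 4.0.16, limma 3.58.1, R 4.3.3), 4 group means, 11 residual degrees of freedom and a Benjamini-Hochberg threshold of 0.05 over all genes. CPM are counts scaled to the TMM-adjusted library total. The SE is the log2 fold change divided by the square root of F, and the 95% interval from the t quantile at each gene's degrees of freedom. The detectable sizes come from the median SE by the same formula. Totals of 64538297 to 217925484 counts make counting error small beside the spread between mice, except in rare genes. p-values measure the spread between libraries, each named after 1 animal number.

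Named were App, the 20 smallest interaction p and the 10 smallest p of each diet effect among genes of at least 1 CPM with a proper symbol, 3 members of each list by p and level, and 6 fixed genes, 1 of which is not reported here; other names were chosen after their values were seen. Members and lists were chosen with earlier results of these data known. Alternatives were DESeq2 1.42.0, limma-voom, other scalings and filters, a covariate for other cell types, left-out libraries and all 16 libraries. The procedure was tested on simulated data. No set test was run.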

Additional observations from a re-analysis of the deposited data

Results flagged for a closer look

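In the groups of 4 libraries, 234 sets of values were examined for a library with a wide gap to the other 3, and 16 (6.84%) had one, where chance gives about 1 in 20. In App_HFD these were Igkv6-13 in library 559 (0.0285 CPM, with the other 3 at 0), Zfp707 in 559 (5.72 CPM, low), Hba-a2 in 561 (37.8 CPM, low), the astrocyte score in 547 (a mean log2 CPM of 7.41, low) and the erythroid score in 561 (4.50, low). In WT_HFD they were library 2 for Spns2 (119.8 CPM, low) and library 16 for Igkv6-13 (6.10 CPM, high) and for the scores of disease-associated microglia (5.73), cell cycle (2.34) and T cell, B cell and neutrophil genes (1.90), all high. In WT_NCD they were library 4 for Ighv1-4 (0.0358 CPM, with the other 3 at 0) and for the scores of homeostatic microglia (8.21), interferon and MHC class I (4.15) and sphingolipid genes (6.06), all high, and library 11 for Enho (40.7 CPM, high) and Pdxk (75.05 CPM, low).

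App_NCD 553, not used in the comparison, had 38.6% of its counts in mitochondrially encoded protein genes.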

How the results depend on the processing

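The interaction gave 0 calls in edgeR under each scaling, filter, covariate and set of libraries tried, and with each library left out. It gave 6 in DESeq2, where Nos1 (-1.12), Samd12 and Igkv6-13 crossed the threshold. For diet in App mice the 0 calls became 112 in DESeq2, 161 in limma-voom, 5 at a threshold of 0.10 and 0 to 18 with 1 library left out (7 without App_HFD 559, 1 without App_NCD 537, 18 without WT_HFD 2). For diet in WT mice they became 45 in DESeq2, 5 in limma-voom, 7 without WT_HFD 2 and 16, and 0 to 4 with 1 library left out (4 without WT_HFD 2). The median half-width of 0.65 became 1.47 without a filter, which adds genes of few counts. The share with the same diet direction among genes at an unadjusted p under 0.05 in both genotypes, an alternative chosen after seeing the data, became 99.1% without WT_HFD 2 and 16, and 94.0% to 99.0% with 1 library left out. Where not stated, the cause was not tested. Scaling to the myelin genes moved the median diet effect in App mice to -0.13 and the median interaction to -0.06. No paired analysis was possible because the groups share no replicate number. Depth limits genes under 1 CPM.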
